A study of Mus musculus with 18 samples.

Results

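The genes of voltage-gated calcium and sodium channels were examined in the striatum of mice given amphetamine or saline. They were taken as every gene name that begins with Cacna, Cacnb or Cacng, or that reads Scn, a number and the letter a or b. This gave 40 of the 29942 names in the table, 26 for calcium channels and 14 for sodium channels. Of these, 31 had a mean of at least 1 FPKM (fragments per kilobase of transcript, scaled to the mapped fragments of a library, so a level per gene length) and were tested, and 9 lay under that mean and were only described. PolyA RNA was sequenced from striatal tissue that lay dorsal to the anterior commissure, with both hemispheres taken, in 18 sibling mice of strain 129Sv/Jae S4. There were 3 mice in each of 6 groups, which received D-amphetamine, a stimulant that drives dopamine release, or 0.9% saline, and were sampled on day 1, 7 or 21. Amphetamine was injected intraperitoneally in a volume of 10 ml/kg, to 7 mg/kg in total per day. The series is titled after repetitive behaviours that such drugs induce, and no genetic change was named for any group.

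A voltage-gated sodium channel is built around 1 large alpha subunit, which forms the pore and carries the rising phase of the action potential, and small beta subunits that set its gating and its place in the membrane. A voltage-gated calcium channel likewise has a pore-forming alpha1 subunit, a cytoplasmic beta subunit that brings it to the membrane, and an extracellular alpha2delta subunit. The gamma genes encode membrane proteins of which a few join muscle calcium channels, while several act in brain as auxiliary subunits of AMPA-type glutamate receptors. In striatal projection neurons, the GABAergic output cells that make up most of the tissue, sodium channels support firing and calcium channels shape the slow depolarised state and transmitter release, and dopamine receptors are known to act on both.

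A pair of sodium channel beta genes lie next to each other on mouse chromosome 9, with 0 other protein-coding genes between them in the RefSeq order. They are shown because Scn4b had the highest level of the 40 genes and Scn2b also lay among the highest, with unlike sequence at their starts. Each line gives 250 bases before to 50 after the annotated RefSeq start (build GRCm38.p6, plus strand, 5′ to 3′), with every CG dinucleotide in capitals. The first window lies at chr9:45138374-45138673 and the second at chr9:45117626-45117925.
Scn4b: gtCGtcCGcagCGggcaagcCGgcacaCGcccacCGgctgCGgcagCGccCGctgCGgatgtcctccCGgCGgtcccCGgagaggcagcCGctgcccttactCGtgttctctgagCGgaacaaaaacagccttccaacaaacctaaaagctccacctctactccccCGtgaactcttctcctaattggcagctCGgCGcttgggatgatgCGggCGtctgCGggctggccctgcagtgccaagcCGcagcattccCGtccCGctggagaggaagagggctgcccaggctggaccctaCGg
Scn2b: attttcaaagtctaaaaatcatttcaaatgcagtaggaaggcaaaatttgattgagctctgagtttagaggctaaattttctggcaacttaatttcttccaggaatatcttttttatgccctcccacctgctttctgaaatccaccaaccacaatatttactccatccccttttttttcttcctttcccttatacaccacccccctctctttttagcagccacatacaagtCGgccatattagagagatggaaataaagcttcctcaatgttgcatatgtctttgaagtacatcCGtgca
The Scn4b window held 26 CG dinucleotides at 66.3% G and C, against 2 at 38.3% in the Scn2b window, although both genes were strongly represented. A start window was on hand for 30 of the 40 genes (41 windows in all, of 300 bases each). The median number of CG dinucleotides was 13.5 over 34 windows of 23 genes with at least 1 FPKM and 5 over 7 windows of 7 genes under it, beside 7 over all 32851 windows of the RefSeq table. Cacng8, at 29.6 FPKM, also had only 2, so the level of a gene did not follow this count one to one. The AP-1 site TGANTCA, read on both strands, occurred in 1 of the 41 windows (2.44%, a window of Cacng5), against 7.81% of all windows. The cAMP response element TGACGTCA occurred in 0 of the 41, against 1.79% of all windows. The GC box GGGCGG was in 39.0% of the windows and in 35.7% of all, and TATAAA in 4.88% and 13.6%. These motifs do not contain one another as spelled, and a match here describes letters only.

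The sources used here do not give total reads per library. Relative depth, taken from the step size of low FPKM values, ran from 0.652 to 1, and the amphetamine groups were somewhat shallower than the saline groups (means of 0.811, 0.822 and 0.765 with amphetamine and of 0.884, 0.894 and 0.873 with saline on days 1, 7 and 21). Correlations between libraries ran from 0.920 to 0.939 within groups and from 0.911 to 0.942 between groups. All 10 projection-neuron markers were present in every library, with Ppp1r1b, the dopamine-regulated phosphatase inhibitor, at 877 to 1333 FPKM. Slc17a7, the vesicular glutamate transporter of cortical neurons, varied from 1.29 to 48.4 FPKM and Ttr, the transthyretin of choroid plexus, from 0.911 to 91.1 FPKM. Over the mean of days, 5 cortical markers had a median log2 difference, amphetamine minus saline, of -0.40 (0 of 5 above 0). For 5 choroid plexus and ependyma markers it was 0.46 (5 of 5 above 0). None of these markers had a limma adjusted p under 0.05, and their part in the channel values was not tested. The immediate-early genes Fos and Btg2 rose with amphetamine by 1.98 ± 0.16 and 1.58 ± 0.12 on the log2 scale over the mean of the 3 days (SE, limma adjusted p = 4.91e-05 and 2.74e-05). Fos did not reach an adjusted p under 0.05 on day 1 or 21 (1.87 and 1.82, limma adjusted p = 0.0525 and 0.0717). Btg2 did not on day 21 (1.39, limma adjusted p = 0.0604). Both did on day 7 (limma adjusted p = 0.0140 for each), and Btg2 also on day 1 (limma adjusted p = 0.00665). A rise of this size could thus go uncalled on a single day.

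Sodium channel beta genes carried the largest summed level of the 6 families, 566 ± 70.7 FPKM (SD over 18 libraries), against 70.2 ± 8.53 FPKM for the sodium channel alpha genes. Calcium channel alpha1 genes summed to 108 ± 9.13, alpha2delta genes to 90.2 ± 4.34, beta genes to 169 ± 7.99 and gamma genes to 204 ± 11.8 FPKM. Scn4b alone made up 58.3% ± 3.34 of the sodium beta sum, and at a mean of 332 FPKM it stood above 99.5% of all gene names. Others of the highest level were Scn2b at 72.9, Cacng4 at 54.6, Cacna2d3 at 52.4, Cacnb3 at 49.3, Cacng7 at 48.5, Cacng3 at 48.3, Cacnb4 at 46.6, Cacnb1 at 46.6, Scn3b at 40.0 and Scn8a at 29.8 FPKM. The libraries of Scn4b did not overlap those of Scn2b, whereas from Cacng4 to Cacnb1 neighbours in this order overlapped widely (Cacng4 at 45.2 to 62.0 FPKM and Cacnb1 at 36.9 to 51.5 FPKM over the 18 libraries).

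Within the sodium alpha family, Scn8a, the subunit concentrated at axon initial segments and nodes, supplied 42.3% ± 3.85 of the sum, ahead of Scn3a (23.0% ± 2.84), a subunit best known from the embryonic brain. Scn1a and Scn2a, which are among the subunits mutated in human childhood epilepsies, supplied 16.9% ± 1.54 and 13.9% ± 2.93. Among calcium alpha1 genes Cacna1a, the P/Q-type pore of nerve terminals, and Cacna1e, the R-type pore, had like shares (23.2% ± 2.50 and 21.8% ± 2.27). The T-type pores Cacna1h and Cacna1i followed at 15.2% ± 1.04 and 14.9% ± 1.21, and the third T-type gene, Cacna1g, at 1.80% ± 0.424. Cacna1c, the more abundant L-type gene, supplied 12.1% ± 1.27, Cacna1b (N-type) 6.15% ± 0.621 and Cacna1d (L-type) 4.82% ± 0.461. Cacna2d3 gave 58.0% ± 2.69 of the alpha2delta sum, ahead of Cacna2d1 (25.8% ± 2.02) and Cacna2d2 (15.7% ± 1.93), which bind gabapentin. The beta genes Cacnb3, Cacnb4 and Cacnb1 had near-equal shares (29.1% ± 2.46, 27.7% ± 2.91 and 27.6% ± 1.51), and Cacnb2 had 15.5% ± 1.06.

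Genes known from muscle, retina and peripheral nerve lay at the bottom. Scn4a and Cacna1s of skeletal muscle averaged 0.00930 and 0.0523 FPKM, Cacna1f of the retina 0.0445 FPKM, and Scn11a of sensory neurons 0.0438 FPKM. Cacng6 was listed at 0 in 15 of 18 libraries, and Scn7a averaged 0.138 FPKM. Under the mean of 1 FPKM lay, among others, Cacna2d4 at 0.385 and Scn10a at 0.219 FPKM, and just over it Cacng1 at 1.30, Scn9a at 1.59 and Cacna1g at 1.92 FPKM. Levels broke between genomic neighbours: Scn1a (11.9 FPKM), Scn9a (1.59) and Scn7a (0.138) are adjacent on chromosome 2, as are Cacng7 (48.5), Cacng8 (29.6) and Cacng6 (0.0194) on chromosome 7 and Cacng1 (1.30), Cacng4 (54.6) and Cacng5 (4.73) on chromosome 11. Spread over libraries, as the coefficient of variation, was lowest for Scn3b (7.11%) and highest for Cacng1 (31.6%) among tested genes. Scn2a, at 26.2%, varied most among those above 5 FPKM.

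**Figure D1:**
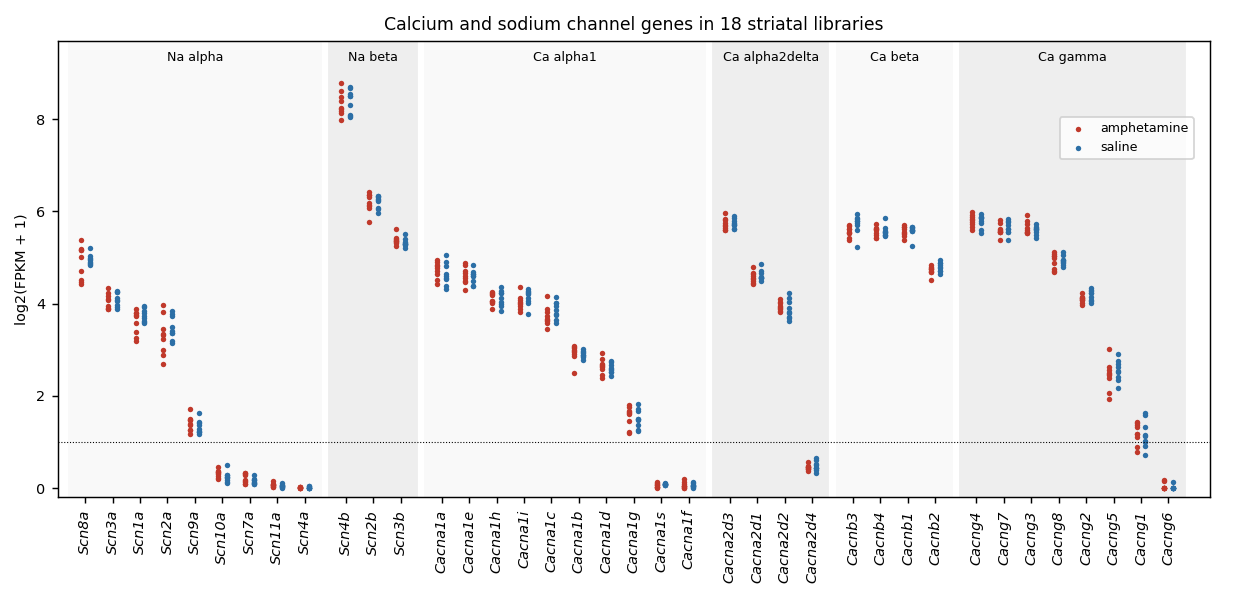
Level of 38 of the 40 genes as log2(FPKM + 1) on the vertical axis, with 1 point per library (9 with amphetamine in red, 9 with saline in blue), grouped by family along the horizontal axis. The dotted line is 1 FPKM; Scn4b is at the top at a mean of 332 FPKM, and the 8 shown genes under a mean of 1 FPKM lie near the bottom.

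Amphetamine was set against saline day by day and averaged over the 3 days, to see which channel transcripts differed with the drug. No channel gene passed the threshold in any of these comparisons (limma on log2(FPKM + 1), Benjamini-Hochberg adjusted p under 0.05 over 13975 genes). On day 1, 0 of 31 passed, against 0.00716% of all genes tested, with 1 of 31 and 7.25% of all genes at an unadjusted p under 0.05. On day 7, 0 of 31 passed against 0.0215% of all genes, with 1 of 31 and 4.92% under 0.05 unadjusted. On day 21 both counts were 0 of 31 against 0% of all genes called and 5.50% under 0.05 unadjusted. Over the mean of days 0 of 31 passed against 0.122% of all genes, with 1 of 31 and 5.36% under 0.05 unadjusted. The exact permutation of treatment within days found 0 of 31 under 0.05, unadjusted. The difference in response between days (treatment by day interaction) gave 0 of 31 against 0% of all genes, with 1 of 31 and 6.25% under 0.05 unadjusted. At these backgrounds a count of 0 among 31 genes does not set them apart from all genes tested.

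The channel genes lay around 0. Their median log2 difference, amphetamine minus saline, was -0.02 on day 1 (15 of 31 above 0), 0.01 on day 7 (16 of 31), -0.06 on day 21 (12 of 31) and -0.01 in the average of days (11 of 31). The medians of all genes tested were 0.05, 0.0036, -0.02 and 0.0080 in the same order of comparisons. Of all genes tested, 64.0%, 51.5%, 42.7% and 55.6% lay above 0 in that order. The shares of the channel genes were 48.4%, 51.6%, 38.7% and 35.5%, and the gap was not tested. The 95% intervals bound what the data allow. For all 31 genes they stayed between -1 and 1 on the log2 scale on every day, and within 1.5-fold either way of FPKM + 1 for 29 genes on day 1, 28 on day 7, 27 on day 21 and all 31 when the days were averaged. For genes of few FPKM the same bounds allow a larger fold in FPKM itself. The median interval reached 0.25 to either side of its estimate on a single day and 0.14 over the mean of days. Scn2a had the widest interval, ±0.58 on a day, and Scn3b the narrowest, ±0.16. In bulk tissue, fewer cells of a type and less RNA per cell cannot be told apart.

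**Figure D2:**
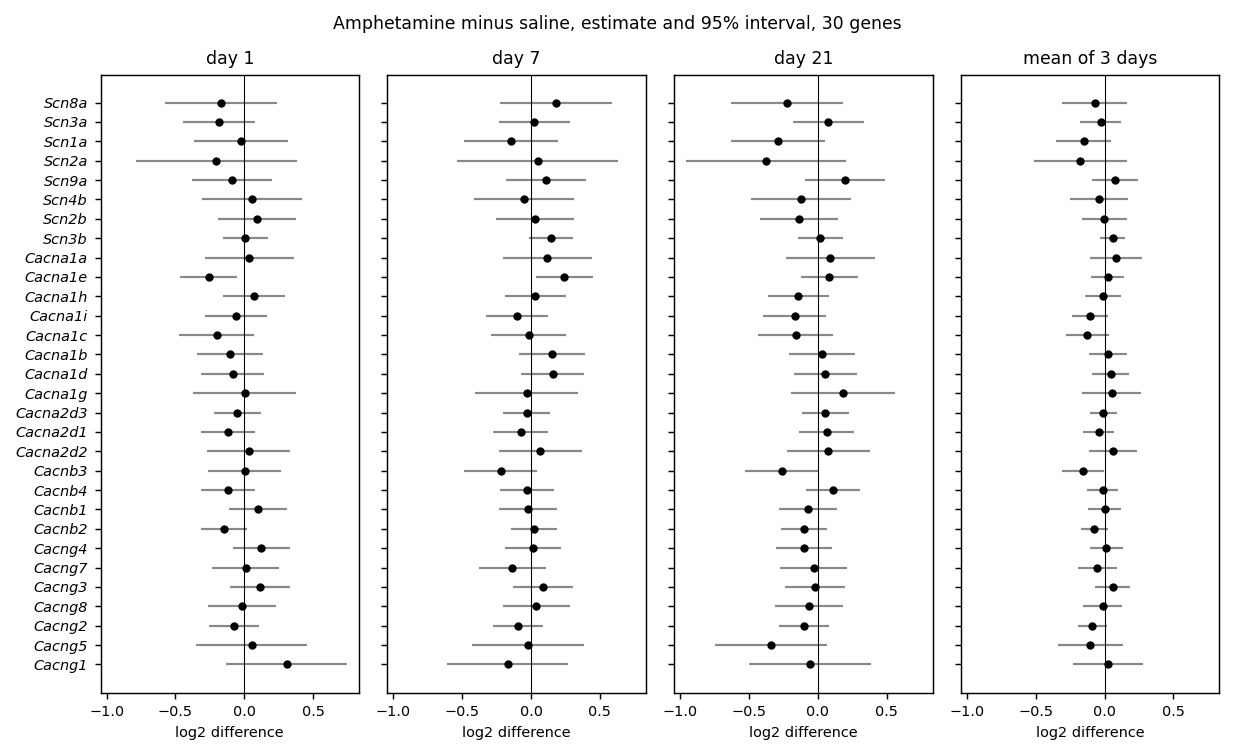
Log2 difference, amphetamine minus saline, for 30 of the 31 tested genes on day 1, 7, 21 and over the mean of the 3 days; points are limma estimates and lines are 95% intervals on log2(FPKM + 1). All lines cross 0 except those of Cacna1e, below 0 on day 1 and above it on day 7 (limma adjusted p of 0.666 and 0.893), and of Cacnb3, below 0 over the mean of days (limma adjusted p of 0.930).

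Scn4b, a beta subunit that can plug the open pore and so let current resurge, is a known mark of striatal projection neurons. On day 1 it had 335, 254 and 298 FPKM with amphetamine and 264, 273 and 314 FPKM with saline. On day 7 the values were 438, 289 and 391 FPKM with amphetamine and 373, 412 and 359 FPKM with saline, and on day 21 they were 281, 303 and 355 FPKM with amphetamine and 266, 405 and 364 FPKM with saline. The treatment groups overlapped on all 3 days, and the log2 difference over the mean of days was -0.04 ± 0.10 (SE, limma adjusted p = 0.999, interval -0.25 to 0.17).

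Scn2b, whose protein is tied to the pore by a disulfide bond, had 81.4, 66.8 and 71.9 FPKM with amphetamine against 66.1, 64.9 and 74.7 FPKM with saline on day 1. Day 7 gave 84.8, 69.5 and 80.7 FPKM with amphetamine and 76.4, 74.2 and 78.5 FPKM with saline, and day 21 gave 53.7, 68.6 and 79.1 FPKM with amphetamine and 61.7, 79.6 and 79.4 FPKM with saline. Groups overlapped on each day, and over the mean of days the log2 difference was -0.004 ± 0.08. Scn3b, the steadiest of the tested genes, had 42.1, 39.0 and 47.9 FPKM with amphetamine and 39.5, 38.2 and 38.4 FPKM with saline on day 7, its largest difference (0.14 ± 0.08 on the log2 scale, limma adjusted p = 1). It had 41.5, 40.0 and 40.4 FPKM with amphetamine against 38.1, 38.6 and 44.7 FPKM with saline on day 1, and 39.4, 39.9 and 36.8 FPKM with amphetamine against 41.0, 35.8 and 37.8 FPKM with saline on day 21.

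The alpha subunit Scn8a spread more widely in amphetamine than in saline libraries on days 1 and 21. It had 35.2, 25.2 and 20.3 FPKM with amphetamine and 30.2, 28.1 and 30.6 FPKM with saline on day 1, and 34.7, 21.8 and 21.1 FPKM with amphetamine and 31.8, 29.8 and 27.5 FPKM with saline on day 21. On day 7 it had 31.4, 40.4 and 34.9 FPKM with amphetamine and 28.7, 36.1 and 29.0 FPKM with saline. The SD of 7.58 with amphetamine and 1.35 with saline on day 1, and of 7.65 and 2.18 FPKM in those groups on day 21, was not compared by a test. Groups overlapped on every day, and the log2 differences were -0.17 ± 0.19, 0.18 ± 0.19 and -0.23 ± 0.19 on days 1, 7 and 21 (SE). Scn2a had the most negative difference of the 31 genes on day 21, -0.38 ± 0.27 (limma adjusted p = 0.878), from 7.00, 9.97 and 5.46 FPKM with amphetamine and 9.33, 10.3 and 9.59 FPKM with saline. Its interval there ran from -0.96 to 0.21. Scn1a and Scn9a differed by -0.29 ± 0.16 and 0.19 ± 0.14 on day 21, and neither passed (limma adjusted p = 0.869 and 0.878).

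Cacna1e, the R-type pore, was the one channel gene whose amphetamine and saline libraries separated in opposite directions. On day 1 it had 21.1, 22.5 and 18.6 FPKM with amphetamine and 27.7, 23.3 and 24.0 FPKM with saline. On day 7 the values were 27.4, 25.3 and 28.7 FPKM with amphetamine and 24.1, 24.9 and 19.8 FPKM with saline. On day 21 they were 24.3, 23.1 and 21.6 FPKM with amphetamine and 23.4, 20.01 and 21.6 FPKM with saline. All amphetamine libraries lay below all saline libraries on day 1 and above them on day 7, and the groups overlapped on day 21. The log2 difference was -0.26 ± 0.10 on day 1 (unadjusted p = 0.0177, adjusted p = 0.666 by limma) and 0.24 ± 0.10 on day 7 (unadjusted p = 0.0264, adjusted p = 0.893 by limma). The treatment by day interaction itself had an unadjusted p of 0.00782 and an adjusted p of 0.773 in limma, rank 129 of 13975 genes, and did not pass. The mean level of 10 oligodendrocyte markers, with which Cacna1e correlated at r = -0.65 (adjusted permutation p = 0.0843), was 6.26 ± 0.34 with amphetamine and 6.03 ± 0.37 with saline on day 1, and 5.85 ± 0.38 and 5.95 ± 0.38 on day 7 (log2 scale, SD, n = 3). Its part in the Cacna1e values was not tested.

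Separation of 3 against 3 libraries was not rare in these data: 10.6% of all genes tested separated on day 1, 10.3% on day 7 and 12.3% on day 21. Of the 31 channel genes 3 separated on day 1 (Cacng1 higher with amphetamine, Cacna1e and Cacnb2 lower), 3 on day 7 (Cacna1e and Cacna1b higher, Cacnb3 lower) and 1 on day 21 (Cacnb3 lower). Cacna1b, the N-type pore of nerve terminals, had 6.93, 6.79 and 7.43 FPKM with amphetamine and 6.68, 6.25 and 5.86 FPKM with saline on day 7, a narrow gap, and its log2 difference was 0.15 ± 0.11.

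Cacnb3, a beta subunit abundant in brain, had the smallest unadjusted p over the mean of days. It had 45.6, 40.8 and 50.4 FPKM with amphetamine and 54.2, 51.3 and 54.0 FPKM with saline on day 7, and 48.2, 41.9 and 51.4 FPKM with amphetamine and 53.1, 60.4 and 56.3 FPKM with saline on day 21. The amphetamine libraries lay below the saline libraries on both of those days. On day 1 the groups overlapped, at 48.3, 45.3 and 45.3 FPKM with amphetamine and 36.6, 56.6 and 47.4 FPKM with saline. The log2 difference over the mean of days was -0.16 ± 0.07 (unadjusted p = 0.0411, adjusted p = 0.930 by limma, interval -0.31 to -0.01). The exact permutation of treatment within days (8000 assignments, two-sided) gave p = 0.0550. On single days the difference was 0.0024 ± 0.12, -0.22 ± 0.12 and -0.26 ± 0.12 on days 1, 7 and 21, with limma adjusted p of 0.869 or more. Cacnb3 correlated with the projection-neuron markers at r = 0.59 (adjusted permutation p = 0.127). Those 10 markers had a median log2 difference, amphetamine minus saline, of 0.04 on day 1 (6 of 10 above 0), -0.13 on day 7 (2 of 10) and -0.06 on day 21 (3 of 10), and their part in the Cacnb3 values was not tested.

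Cacnb4, the beta subunit missing in lethargic mice, had 44.2, 48.2 and 41.6 FPKM with amphetamine and 57.0, 43.2 and 46.3 FPKM with saline on day 1. It had 47.3, 42.1 and 47.8 FPKM with amphetamine and 49.2, 47.0 and 43.9 FPKM with saline on day 7, and 49.1, 51.8 and 45.3 FPKM with amphetamine and 45.7, 44.2 and 45.5 FPKM with saline on day 21. Groups overlapped on all 3 days. Cacnb1, the beta subunit that muscle channels also use, ran from 40.9 to 51.5 FPKM with amphetamine and from 36.9 to 49.6 FPKM with saline over all days. The 95% interval of its log2 difference over the mean of days ran from -0.12 to 0.12, with the estimate closest to 0 of the beta genes. Cacnb2 differed by -0.15 ± 0.08 on day 1 and by -0.07 ± 0.05 over the mean of days, and neither passed (limma adjusted p = 0.674 and 0.999).

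Among the gamma genes, Cacng4, Cacng3 and Cacng8 encode auxiliary subunits of AMPA receptors, as does Cacng2, the stargazin gene. Cacng4 had 56.2, 53.3 and 62.0 FPKM with amphetamine and 45.2, 54.3 and 58.0 FPKM with saline on day 1, and 58.2, 54.9 and 60.1 FPKM with amphetamine and 57.9, 57.0 and 56.6 FPKM with saline on day 7. On day 21 it had 47.1, 49.9 and 52.2 FPKM with amphetamine and 47.2, 60.7 and 52.9 FPKM with saline, the groups overlapping throughout. Cacng3 had 44.9, 45.3 and 59.8 FPKM with amphetamine and 42.0, 44.0 and 51.9 FPKM with saline on day 1, and 54.8, 45.8 and 51.8 FPKM with amphetamine and 49.5, 48.0 and 45.7 FPKM with saline on day 7. Its day 21 values were 46.0, 47.3 and 48.6 FPKM with amphetamine and 47.2, 48.4 and 48.6 FPKM with saline, again with overlap on every day. Cacng7, which belongs to another class of such subunits with Cacng5, had 46.2, 47.3 and 40.8 FPKM with amphetamine and 48.0, 46.1 and 53.7 FPKM with saline on day 7, a log2 difference of -0.14 ± 0.11. Over the other 2 days its libraries ran from 45.7 to 55.2 FPKM with amphetamine and from 40.8 to 56.4 FPKM with saline. Cacng2 differed by -0.09 ± 0.05 over the mean of days, with an unadjusted p of 0.0861 and an adjusted p of 0.985 in limma.

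Cacng1, a subunit of the muscle calcium channel, had the most positive difference on day 1, 0.31 ± 0.21 on the log2 scale, at a level near the filter. It had 1.67, 1.72 and 1.58 FPKM with amphetamine and 1.19, 1.03 and 1.22 FPKM with saline, and the groups did not overlap. On day 7 it had 1.27, 1.52 and 0.867 FPKM with amphetamine and 1.99, 2.08 and 0.651 FPKM with saline, with wide overlap, and on day 21 all 6 libraries lay between 0.720 and 1.49 FPKM. Day 1 did not pass (limma adjusted p = 0.700), and adding 1 before taking logs makes the change of so low a gene look smaller. The other members beside the filter, Scn9a and Cacna1g, ran from 1.24 to 2.27 FPKM and from 1.28 to 2.52 FPKM with amphetamine, and from 1.27 to 2.10 FPKM and from 1.36 to 2.55 FPKM with saline.

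**Figure D3:**
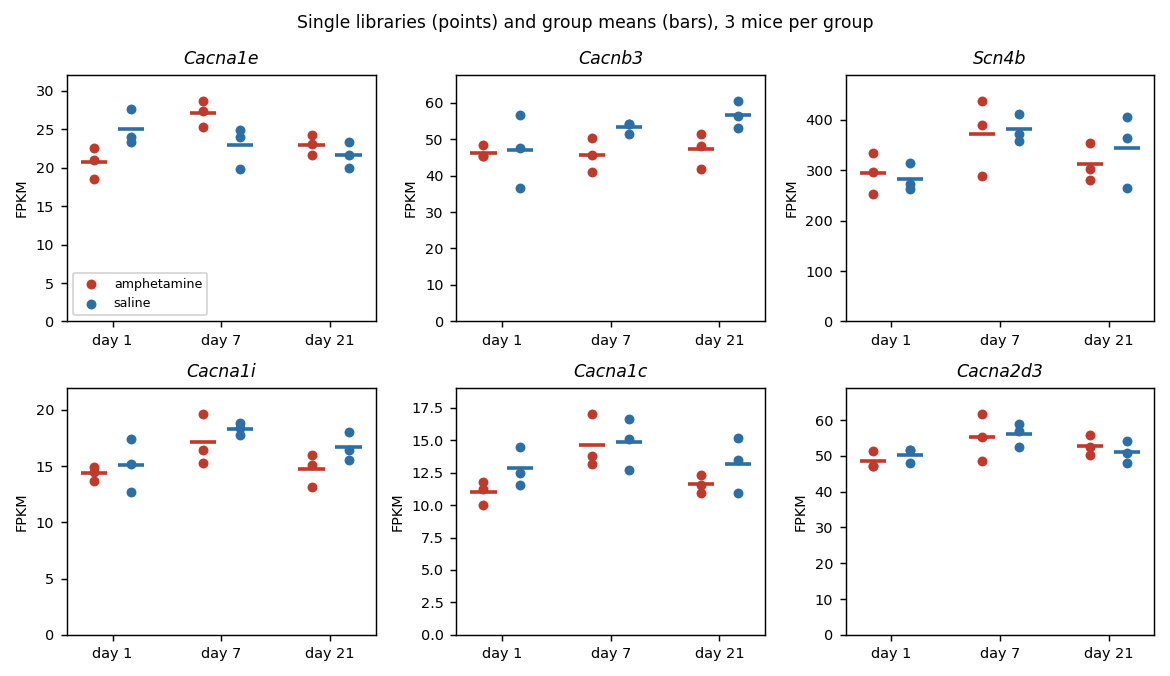
FPKM of 6 channel genes in single libraries (points) on days 1, 7 and 21, amphetamine in red and saline in blue, with bars for the mean of 3 mice; vertical axes start at 0. Cacna1e lies lower with amphetamine on day 1 and higher on day 7, Cacnb3 lower on days 7 and 21, and Scn4b, Cacna1i, Cacna1c and Cacna2d3 have their highest means on day 7 in both treatments. All 6 genes were picked by an unadjusted limma p under 0.05 in a comparison.

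Days were compared over both treatments, since the rule of choice asked for levels by day. None of the 31 genes passed the F test over the 3 days, against 0% of all genes, with 4 of 31 (12.9%) and 10.7% of all genes at an unadjusted p under 0.05 in limma. Day 21 minus day 1 gave 0 of 31 against 0% of all genes, with 0 of 31 and 6.48% under 0.05 unadjusted, and a median of -0.01 over the channel genes. The 4 genes with an unadjusted p under 0.05 had their highest mean on day 7. Cacna1i, a T-type pore, averaged 14.7 ± 1.58, 17.7 ± 1.60 and 15.7 ± 1.60 FPKM on days 1, 7 and 21 (SD, n = 6 mice a day), with an unadjusted p of 0.0136 and an adjusted p of 0.353 in limma. Cacna1c, an L-type pore, averaged 11.9 ± 1.5, 14.7 ± 1.81 and 12.4 ± 1.68 FPKM, with limma's unadjusted p at 0.0151 and its adjusted p at 0.354. Scn4b averaged 289 ± 31.6, 377 ± 51.4 and 329 ± 54.3 FPKM (limma, unadjusted p = 0.0240, adjusted p = 0.391). Cacna2d3, a subunit of the alpha2delta class, averaged 49.5 ± 2.28, 55.7 ± 4.67 and 52.0 ± 2.83 FPKM (limma, unadjusted p = 0.0350, adjusted p = 0.435).

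Single libraries show how far the days overlapped. Cacna1i had 14.9, 14.4 and 13.7 FPKM with amphetamine and 12.7, 17.4 and 15.2 FPKM with saline on day 1, and 16.4, 15.3 and 19.6 FPKM with amphetamine and 18.8, 18.4 and 17.8 FPKM with saline on day 7. Its day 21 values were 15.1, 13.2 and 15.95 FPKM with amphetamine and 15.6, 18.02 and 16.4 FPKM with saline. Cacna2d3 had 51.4, 47.2 and 47.2 FPKM with amphetamine and 47.9, 51.6 and 51.7 FPKM with saline on day 1, then 55.4, 48.5 and 61.7 FPKM with amphetamine and 58.9, 57.0 and 52.6 FPKM with saline on day 7. On day 21 Cacna2d3 had 50.4, 52.5 and 55.9 FPKM with amphetamine and 48.0, 54.2 and 50.8 FPKM with saline. For Cacna1i all 6 libraries of day 7 lay above 5 of the 6 libraries of day 1. For Cacna2d3 5 of the 6 libraries of day 7 lay above all of day 1, the exception being replicate 2 of the amphetamine group. These genes were picked by their unadjusted p between days, so little overlap follows from the choice. The share of all genes with as little overlap was not computed. Cacna1c ran from 10.0 to 14.5 FPKM on day 1, from 12.7 to 17 FPKM on day 7 and from 10.9 to 15.2 FPKM on day 21.

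The mean level of the 10 projection-neuron markers also stood highest on day 7, at 7.99 ± 0.07, 8.10 ± 0.11 and 8.04 ± 0.10 on days 1, 7 and 21 (mean log2(FPKM + 1), SD, n = 6), and its part in these day values was not tested. Between days, 0 of these 10 markers and 0 of 10 oligodendrocyte markers had an unadjusted p under 0.05 in limma. The share among all genes tested was 10.7%. The counts were 3 of 6 for oligodendrocyte precursors, 2 of 5 for cortical, 3 of 9 for interneuron and 3 of 8 for microglia markers. They were 2 of 8 for astrocyte, 2 of 8 for endothelial and mural, and 1 of 5 for choroid plexus and ependyma markers. The precursor list was lowest on day 7, at 3.02 ± 0.17, 2.76 ± 0.19 and 2.90 ± 0.06 on days 1, 7 and 21. Its r was -0.64 with Cacna2d3, -0.61 with Cacna1c and -0.57 with Cacna1i (adjusted permutation p of 0.0909, 0.102 and 0.157), and its part was not tested either. The summed FPKM of the 10 projection-neuron genes ran from 3693 to 4542 on day 1, from 3755 to 4482 on day 7 and from 3716 to 4484 on day 21. Day also went with the range of the number in the library labels, whose meaning is not given: 5 of the 6 libraries of day 1, 0 of day 7 and 2 of day 21 were among the 7 highest. With that range as a factor the unadjusted p of Cacna1c was 0.128, and those of Cacna1i, Scn4b and Cacna2d3 were 0.00562, 0.0227 and 0.0398 (limma, adjusted p of 0.381 or more).

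Tissue samples can differ in their mix of cells, and each of the 31 genes was correlated over the 18 libraries with the mean level of 9 lists of cell type markers. Of these 279 pairs 4 had an adjusted permutation p under 0.05 by Pearson's r. Scn4b went with the projection-neuron markers at r = 0.79 and rho = 0.80 (permutation p = 0.00022, adjusted p = 0.0272), and at r = 0.80 without the 2 libraries farthest from the median of the markers. Cacna2d3 went with the same markers at r = 0.76 and rho = 0.73 (permutation p = 0.00039, adjusted p = 0.0272), and at 0.69 without the 2 farthest. Deviations from the group means, which leave out differences between groups, gave r = 0.73 for Scn4b and 0.77 for Cacna2d3, and these r were not tested. Within the 7 libraries of the lowest label numbers r was 0.88 and 0.99, and within the 7 of the highest it was 0.38 and 0.26 for Scn4b and Cacna2d3 in that order, and the gap between these sets of libraries was not tested. Cacna1i came next for these markers, at r = 0.72 with an adjusted permutation p of 0.0536.

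Scn3a ran against the oligodendrocyte lineage. Its r was -0.75 with the 10 oligodendrocyte markers and -0.75 with the 6 markers of their precursors, with rho of -0.74 and -0.76 (permutation p = 0.00035 and 0.00021, adjusted p = 0.0272 for both). Without the 2 farthest libraries r was -0.61 in each case, and for deviations from group means it was -0.75 and -0.77. Within the lowest and the highest 7 label numbers r was -0.63 and -0.37 for the oligodendrocyte list, and -0.73 and -0.54 for the precursor list. These 2 lists share libraries and a lineage, so they are not separate evidence. Scn3a had 13.8, 16.3 and 13.7 FPKM with amphetamine and 18.1, 16.4 and 15.6 FPKM with saline on day 1, where the summed oligodendrocyte markers ran from 1841 to 3000.5 FPKM with amphetamine and from 1342 to 2321 FPKM with saline. By Pearson's r no channel gene passed with cortical, interneuron, astrocyte, microglia, vessel or choroid plexus markers. By Spearman's rho 8 pairs passed, the 4 above and 4 more. Those 4 were Cacna1i with projection-neuron markers (rho = 0.72, adjusted permutation p = 0.0478), Cacnb4 with oligodendrocytes (rho = -0.73, adjusted permutation p = 0.0470), Scn3a with microglia (rho = -0.71, adjusted permutation p = 0.0478) and Cacna1c with choroid plexus (rho = -0.72, adjusted permutation p = 0.0470). Their adjusted p by Pearson's r was 0.0536, 0.0662, 0.0784 and 0.0843, by permutation. Of the 10 cortical markers 9 were in the table and 5 had a mean of at least 1 FPKM; the 9 summed to 5.68 to 83.7 FPKM, with none at 0 in any library. All values are shares of each library's fragments, so a gene can fall as another cell type's RNA rises.

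**Figure D4:**
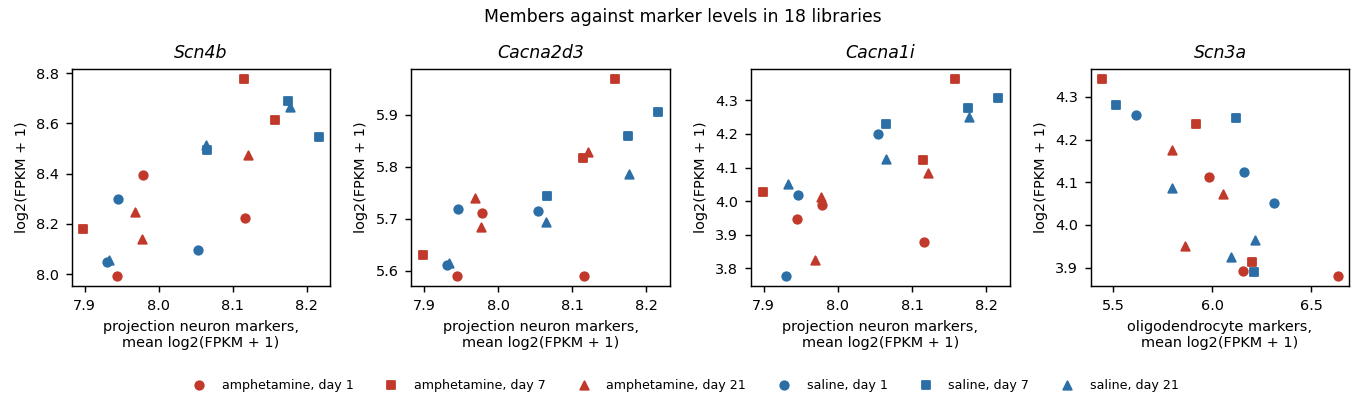
Level of Scn4b, Cacna2d3, Cacna1i and Scn3a, as log2(FPKM + 1) on the vertical axes, against the mean log2(FPKM + 1) of projection-neuron or oligodendrocyte markers on the horizontal axes, in 18 libraries (amphetamine red, saline blue; circles, squares and triangles for days 1, 7 and 21). The first 3 genes rise to the right (r of 0.79, 0.76 and 0.72) and Scn3a descends (r of -0.75); axes do not start at 0.

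Genes that work with these channels were listed by role, 43 names in 7 lists, of which 42 were in the table and 34 had a mean of at least 1 FPKM. None passed in any of the 7 comparisons in limma, with 1, 4, 1 and 5 of 34 under 0.05 unadjusted on day 1, on day 7, on day 21 and in the average of days. That is 2.94%, 11.8%, 2.94% and 14.7% of them, beside 7.25%, 4.92%, 5.50% and 5.36% of all genes tested. The 4 fibroblast growth factor homologous factors, which bind sodium channel tails, had a median log2 difference of -0.04 over the mean of days, and the 6 tested anchors and adhesion partners, such as the ankyrins that hold sodium channels at the initial segment, had -0.02. The 9 partners of calcium channels at the synapse had -0.03. The 5 tested release channels of internal calcium stores had -0.06. A list of other cation channels and of genes linked to such channels had 0.05 over its 6 tested genes. The remaining list, of 3 genes, had -0.06 with 0 of 3 above 0, and -0.13 with 0 of 3 above 0 on day 7. Of the 4 RGK proteins, which inhibit calcium channels, only Rem2 was tested, at 35.9 FPKM and a difference of 0.09 ± 0.08. Snap25, a vesicle fusion protein that binds calcium channels, differed by -0.09 ± 0.03 over the mean of days (limma adjusted p = 0.714).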

How the data were processed

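Polyadenylated striatal RNA of 18 mice was sequenced, and 1 table of 29942 gene names by 18 libraries was used. The values are FPKM as the authors deposited them. Bowtie and the mouse build mm9 are named in the submitters' processing notes; the sources used here do not give versions, the quantifying program, the annotation or the handling of strand and of reads shared by related genes. Groups and replicate numbers came from the labels, which describe 3 mice per group.

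No count model was used, since FPKM are scaled values. Relative depth came from the most frequent ratio of low FPKM values between libraries, over 2275 low genes. In a check made after it, 723 of these genes (31.8%) lay within 0.05 of whole multiples of their smallest scaled value in all libraries. This gave relative depth only, so absolute depth is unknown and no counting intervals are given. Values were tested as log2(FPKM + 1), which understates changes of low genes, in the 13975 genes that averaged 1 FPKM or more, with limma (version 3.58.1, R version 4.3.3). All 18 libraries entered 1 fit of 6 group means with a mean-variance trend (12 residual and 2.26 prior degrees of freedom). Tests were two-sided, with Benjamini-Hochberg adjustment over all genes tested and a threshold of 0.05. With 3 mice against 3, a permutation on 1 day cannot give p under 0.1. Over the mean of days, treatment was permuted within days (8000 assignments, exact). Correlations with marker levels used 100000 permutations in numpy (version 2.4.6), with ranks for rho from scipy (version 1.17.1), adjusted over 279 pairs.

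Genes were named if past the threshold, among the 5 smallest unadjusted p under 0.05 of a comparison, among the 12 highest levels, or among the 3 on either side of the filter. Some of them, such as Cacnb1 and Cacna1c, are given by ranges or means and not library by library. Others named here (for example Cacng2, Cacna1b, Scn2a and partner genes) were chosen after their values were seen. The channel genes, marker lists and partner lists were chosen with earlier results of these data known. All 40 names matched RefSeq symbols; start windows are RefSeq's (GRCm38.p6), and no other coordinates are given, since the files' build differs. Results of a few single genes, which entered all fits and counts, are not reported here. Alternatives were a pseudocount of 0.1, quantile normalization or median-of-ratios scaling, no filter or one at 5 FPKM, a replicate block, the label number's range as a factor, robust moderation, fits to the 6 libraries of a day and leaving out each library. The level of cortical markers and relative depth as covariates were chosen after seeing the data. Scripts were tested on simulated data.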

Additional observations from a re-analysis of the deposited data

Results flagged for a closer look

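Cacna1e, the R-type calcium channel pore, was set apart because amphetamine and saline libraries separated one way on day 1 (20.7 ± 2 FPKM with amphetamine, 25.0 ± 2.36 FPKM with saline, SD, n = 3) and the other way on day 7 (27.1 ± 1.72 FPKM with amphetamine, 22.9 ± 2.73 FPKM with saline). The interaction had an unadjusted p of 0.00782, which did not hold over 13975 genes (limma adjusted p = 0.773). Under 28 alternatives its unadjusted p ran from 0.00123 to 0.0265 and its adjusted p from 0.461 to 0.944, so no alternative called it. The gene was singled out among 31 for this pattern, so the unadjusted p describes it and does not test it afresh.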

How the results depend on the processing

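The count of channel genes past the threshold was 0 in each of the 7 comparisons and under each of 28 or 29 alternatives, including no filter (40 genes tested) and a filter of 5 FPKM (27 tested). Marker correlations (Pearson's r) past the threshold numbered 4, and 9 after median-of-ratios scaling; the cause was not tested. Calls among all genes ranged from 0 to 8 on day 1, 0 to 10 on day 7, 0 to 6 on day 21, 8 to 18 over the mean of days, 0 to 2 for the interaction, 0 to 3 between days and 0 to 1 for day 21 minus day 1. The highest counts came without amphetamine replicate 2 of day 1 on day 1, without amphetamine replicate 3 of day 1 on day 7, and on day 21 both without amphetamine replicate 3 of day 1 and in the fit to the 6 libraries of the day. With the replicate block they were 1, 0, 0, 8, 0, 0 and 0 in that order, with 0 channel genes called. Whether libraries of equal replicate number were paired was not tested. Of 45 pairs of equal number, 7 had deviations correlated over 0.1 (range -0.13 to 0.17), among them 3 of the 9 pairs within a day. Of the 18 libraries, 10 were closest to their own number, and no count expected without pairing is set beside this. Unadjusted p values of single genes moved past 0.05 on leaving out 1 library: Cacna1e to 0.0913 on day 1 (without amphetamine replicate 3 of day 1) and to 0.156 on day 7 (without saline replicate 3 of day 7), and Cacnb3 over the mean of days to 0.0880 (without amphetamine replicate 2 of day 21). Between days, Cacna1c moved to 0.0547 and Cacna2d3 to 0.0933 (without amphetamine replicate 3 of day 7), and Scn4b to 0.0661 (without amphetamine replicate 1 of day 7). Each is the highest over the libraries left out, and leaving out others also moved some genes past 0.05. Over the alternatives, limma's unadjusted p was under 0.05 for Cacna1e in 26 of 29 on day 1 and 24 of 29 on day 7. For Cacnb3 over the mean of days it was so in 16 of 28. Between days it was so in 25 of 28 for Cacna1c, 19 for Cacna2d3 and 23 for Scn4b. In limma, Cacna1e on day 7 had an unadjusted p of 0.0620 after median-of-ratios scaling and 0.0556 in that day's own fit. With cortical marker level as a covariate, limma's unadjusted p was 0.0576 for Cacna1e on day 1 and 0.0884 for Cacnb3 over the mean of days. For Cacna2d3 between days it was 0.0666. It stayed under 0.05 for Cacna1e on day 7 (0.0239) and in the interaction (0.0159). Between days it stayed under 0.05 for Cacna1i, Cacna1c and Scn4b (0.0210, 0.0211 and 0.0154). No alternative turned the sign of the Cacna1e and Cacnb3 differences. The median of the channel genes stayed between -0.11 and 0.05 on each day. With 3 mice per group, differences under about 0.25 on the log2 scale lie within the typical interval of 1 day.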
